A study of Homo sapiens with 12 samples.

Results

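Transcript levels of 32 mitosis and spindle genes were followed in every library of a study of RBM3, a cold-inducible RNA-binding protein, in pancreatic carcinoma cells. The genes were set by a list of symbols, which was chosen with earlier results of these data known. All 32 were found by Ensembl identifier among the 63677 genes of the deposited count table, and all 32 passed the filter on low counts that left 17862 genes for testing.

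The products of these genes carry a cell through division. Cyclin-dependent kinase 1 with cyclins A and B drives entry into mitosis, Aurora and Polo-like kinases build the spindle, and kinetochore proteins tie each chromosome to its microtubules. The spindle checkpoint holds the anaphase-promoting complex until all chromosomes are attached, and kinesins and cross-linking proteins then form the midzone where the cell cleaves. Transcripts of most such genes are made in G2 and mitosis, and in cultured cells their sum follows the share of cells in those phases.

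Both cell lines, MIA PaCa-2 and PANC-1, derive from human pancreatic carcinomas and are established in culture. Each was transfected with 25 nM of a mixture of siRNAs against RBM3 or of a negative control siRNA, for 4.5 h in medium without serum after 72 h of culture, and collected after a night in full medium. The groups were MIA PaCa-2 with RBM3 siRNA (replicates 1, 2 and 5), MIA PaCa-2 with control siRNA (1, 2 and 4), PANC-1 with RBM3 siRNA (1, 2 and 3) and PANC-1 with control siRNA (1, 2 and 4), with 3 libraries each. All cells of both arms therefore received transfection reagent and siRNA, and no untreated cells are among these groups. The labels do not state that replicates came from separate cultures, so the spread behind each p-value is that between these libraries and may be technical. In bulk RNA, fewer dividing cells and less of a transcript per cell cannot be told apart.

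Total counts were between 14217185 and 39652502 per library, and the 32 genes took between 0.373% and 0.646% of them. Levels are given as CPM, counts scaled to the TMM-normalised library size. The siRNA target RBM3 had 44.4, 37.4 and 61.9 CPM in MIA PaCa-2 siRNA libraries, against 249.8, 277 and 207 CPM in the controls (edgeR adjusted p 0.0426). PANC-1 siRNA libraries had 96.5, 195 and 83.0 CPM of RBM3, against 567, 426 and 436 CPM (edgeR adjusted p 0.516). The groups did not overlap in either line. Summed keratins, EPCAM and CDH1 were at 3910 to 7510 CPM in PANC-1 and 1940 to 3430 CPM in MIA PaCa-2, but in MIA PaCa-2 the epithelial adhesion genes EPCAM and CDH1 were at or near 0 (at most 0.0952 and 0.832 CPM). In PANC-1 siRNA replicate 3, 62 genes that the control libraries show as particular to MIA PaCa-2 (at least 20 CPM and 100-fold higher there) stood at a median of 45.5% of their level in MIA PaCa-2 siRNA libraries, against 0.151% to 0.481% in the other PANC-1 libraries. The library labelled PANC-1 siRNA replicate 3 therefore goes against its label in part, and fold changes that it moves most are also given without it.

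Promoters are shown to describe the 32 genes, and a link between motifs and the levels in single libraries was not tested. RefSeq promoter windows (GRCh38.p14, 250 bases before to 50 after the start) were matched for 27 of the 32 genes. The windows were searched on both strands for TTTGAA, a core of the cell cycle homology region known from genes expressed in G2 and mitosis, and for CCAAT, the box bound by NF-Y. TTTGAA was in 21 of the 29 windows of these genes, or 20 of the 27 genes (74.1%), against 15.2% of all 35116 windows. In 18 genes a match began within 100 bases before to 50 after the start, a range for which no background was taken. CCAAT was in 23 windows or 21 genes (77.8%), against 34.6% of all windows. Both were in 17 windows or 16 genes (59.3%), against 5.90% of all windows. The percentages of these genes are per gene, and those of the background are per window. A match is a description of the letters and not a shown binding site. The list was made of mitosis genes, so a high share of a motif known from such genes is not a test. Below, KIF23 (chr15:69414099-69414398, plus strand), TOP2A (chr17:40417847-40418146, minus strand) and CDC20 (chr1:43358731-43359030, plus strand) hold both motifs, NUF2 (chr1:163321704-163322003, plus strand) holds TTTGAA alone and CCNB1 (chr5:69166900-69167199, plus strand) holds CCAAT alone. They are printed 5′ to 3′ on the strand of the gene, and capitals mark the matches of either motif, with TTCAAA and ATTGG for those on the other strand.
KIF23: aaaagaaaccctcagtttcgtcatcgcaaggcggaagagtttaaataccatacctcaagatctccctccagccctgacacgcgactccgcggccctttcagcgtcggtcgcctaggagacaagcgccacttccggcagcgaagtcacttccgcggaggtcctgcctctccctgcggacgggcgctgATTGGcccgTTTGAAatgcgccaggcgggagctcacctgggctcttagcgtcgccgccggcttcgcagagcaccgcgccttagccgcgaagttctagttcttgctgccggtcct
TOP2A: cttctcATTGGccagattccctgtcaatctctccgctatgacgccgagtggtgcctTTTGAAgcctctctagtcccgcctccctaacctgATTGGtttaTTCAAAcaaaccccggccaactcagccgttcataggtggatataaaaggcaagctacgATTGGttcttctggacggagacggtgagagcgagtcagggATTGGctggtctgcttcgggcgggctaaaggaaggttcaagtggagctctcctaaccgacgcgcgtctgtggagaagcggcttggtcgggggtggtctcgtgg
CDC20: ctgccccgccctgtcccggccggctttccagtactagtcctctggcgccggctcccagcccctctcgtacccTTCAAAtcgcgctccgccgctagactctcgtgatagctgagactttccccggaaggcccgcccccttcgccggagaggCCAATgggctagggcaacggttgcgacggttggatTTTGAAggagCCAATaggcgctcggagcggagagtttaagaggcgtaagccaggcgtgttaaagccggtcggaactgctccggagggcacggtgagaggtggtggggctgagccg
NUF2: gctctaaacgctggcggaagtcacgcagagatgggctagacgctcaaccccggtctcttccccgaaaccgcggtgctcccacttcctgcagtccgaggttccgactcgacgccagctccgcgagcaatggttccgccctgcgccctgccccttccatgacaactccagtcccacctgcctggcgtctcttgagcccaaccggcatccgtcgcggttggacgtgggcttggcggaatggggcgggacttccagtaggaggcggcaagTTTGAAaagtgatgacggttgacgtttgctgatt
CCNB1: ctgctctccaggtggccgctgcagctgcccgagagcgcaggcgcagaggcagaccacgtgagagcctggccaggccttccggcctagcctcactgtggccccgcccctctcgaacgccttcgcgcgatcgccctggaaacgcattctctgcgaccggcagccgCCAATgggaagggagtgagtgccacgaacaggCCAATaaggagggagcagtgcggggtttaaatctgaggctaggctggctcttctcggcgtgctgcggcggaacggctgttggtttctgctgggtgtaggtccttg
In the KIF23 window the TTTGAA match begins at -55 from the start, just after an inverted CCAAT box at -64. TOP2A has 4 inverted CCAAT boxes, and its TTTGAA matches begin farther from the start, at -194 and, on the other strand, -151. CDC20 has a pair of matches of each motif, and the NUF2 match begins at 17, after the start.

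Per length, CCNB1 and CDC20 were among the 3 most abundant of these transcripts in all 4 groups. In MIA PaCa-2 with control siRNA, CCNB1 (cyclin B1) led with 165 CPM per kb of exon, ahead of CDC20, which activates the anaphase-promoting complex, at 141 CPM per kb and UBE2C, its ubiquitin-conjugating enzyme, at 114 CPM per kb. In PANC-1 controls TPX2, which targets Aurora A to spindle microtubules, came first at 155 CPM per kb, followed by CCNB1 at 132 CPM per kb and CDC20 at 116 CPM per kb. CENPE, a kinetochore motor, and ASPM, a spindle pole protein, were the lowest of the 32 in all 4 groups, at 5.53 to 11.1 CPM per kb. All members were thus well above the limit set by a count of 0, which is 0.0714 to 0.208 CPM. CDC20 and UBE2C have processed copies in the table, whose counts came to 4.30% (CDC20P1) and 2.09% (UBE2CP5) of the parent gene, so reads could have been split between them.

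Within each line the mitosis genes moved between libraries of the same group. Levels were expressed as log2 CPM minus the mean of the 6 libraries of a line, and averaged over the 32 genes. In PANC-1, siRNA replicate 2 was at -0.43 and control replicate 1 at -0.40, while the other 4 libraries were between 0.14 and 0.24. A single library of each arm was therefore low. Of the other 4, siRNA replicate 3 (0.22) is the library with transcripts particular to MIA PaCa-2, and it enters the mean of the line. In siRNA replicate 2, 31 of the 32 genes were among the lowest pair of the line, and in control replicate 1 there were 30, against 39.6% and 38.1% of all genes tested. ANLN, the cleavage furrow scaffold, was the only one of the 32 that was highest in siRNA replicate 2, at 540.0 CPM. The low pair also had the highest CDKN1A, the p21 inhibitor of cyclin-dependent kinases, with 119 CPM in siRNA replicate 2 and 129 CPM in control replicate 1, against 59.5 to 72.4 CPM in the other PANC-1 libraries. E2F7, a repressor of cell cycle genes, was likewise highest in that pair, at 43.4 and 35.6 CPM, against 20.3 to 31.8 CPM. Other repressors went both ways. E2F4 was highest in the pair, at 119.8 and 134.8 CPM, against 90.9 to 103.8 CPM. E2F8 was lowest there, at 11.6 and 13.6 CPM, against 17.0 to 19.7 CPM, and so was RBL2, at 36.7 and 29.4 CPM, against 41.1 to 86.8 CPM. Of the 17 regulators tested, 9 in siRNA replicate 2 and 6 in control replicate 1 were above the mean of the line. These genes were looked at after the low pair was seen, and their part in the pattern was not tested.

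**Figure D1:**
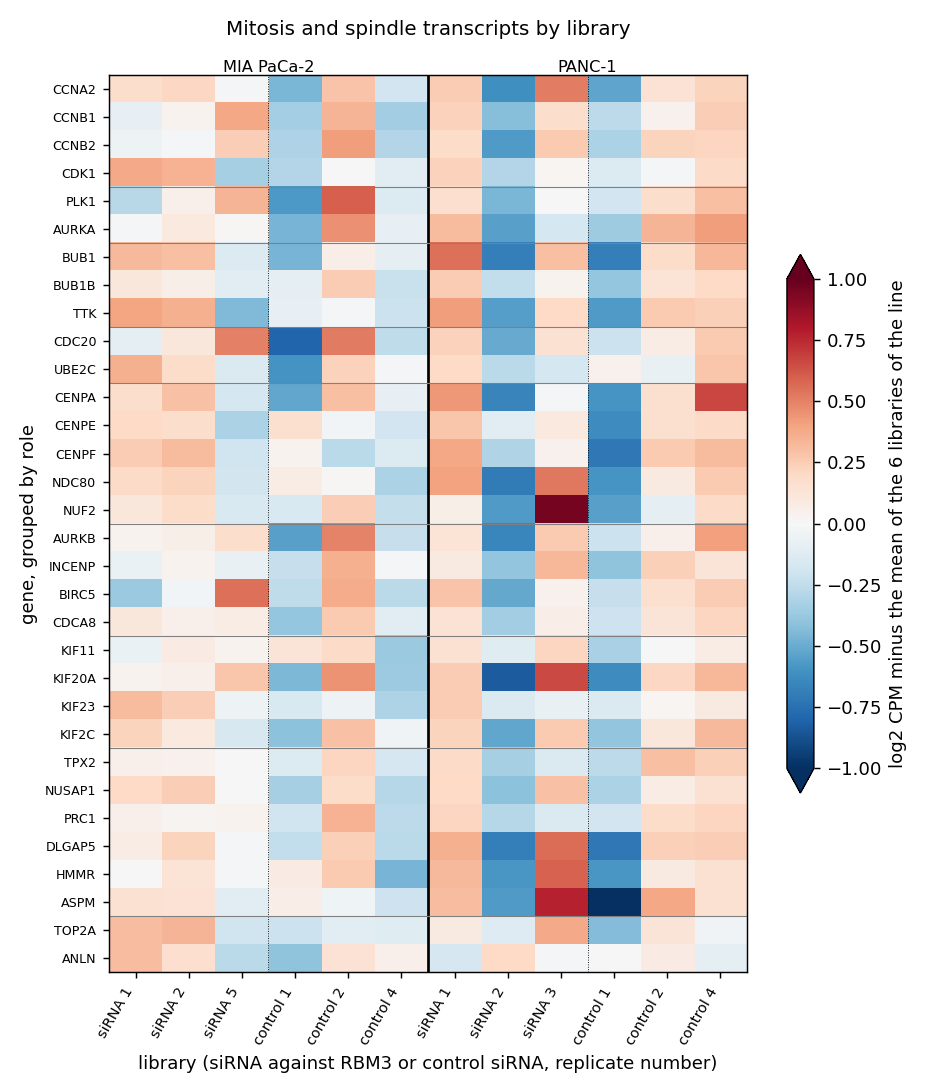
Each row is one of the 32 genes and each column one of the 12 libraries, and colour gives log2 CPM minus the mean of the 6 libraries of the line (values beyond 1 take the end colour). PANC-1 siRNA 2 and control 1 are blue for almost every gene, whereas the siRNA and control columns of MIA PaCa-2 are mixed.

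In MIA PaCa-2 the libraries parted in another way. The 32 genes averaged 0.11, 0.15 and -0.02 in siRNA replicates 1, 2 and 5, against -0.27, 0.22 and -0.20 in control replicates 1, 2 and 4. Control replicate 2 was the highest of its group for 28 of the 32 genes, so the spread among controls spanned that of the siRNA libraries. Within the siRNA group, replicate 5 was lowest for 21 genes and highest for 7. Among the 7 were CDC20 and BIRC5. The 3 siRNA libraries 1, 2 and 5 held 254, 294 and 386 CPM of CDC20, and BIRC5 (survivin, of the chromosomal passenger complex) had 133, 168 and 252 CPM. The opposite order was seen for TTK, the checkpoint kinase MPS1, at 98.9, 96.1 and 55.4 CPM. The members therefore did not move as one block in this line.

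Replication genes gave a second axis. In MIA PaCa-2 the 28 genes of the replication list averaged -0.28, -0.08 and 0.26 in siRNA replicates 1, 2 and 5, against 0.30, 0.21 and -0.40 in control replicates 1, 2 and 4. Siding with neither arm, they were high in control replicate 1, where the mitosis genes were low. In PANC-1 they averaged 0.00, -0.20 and 0.15 in siRNA replicates 1, 2 and 3, against -0.12, 0.12 and 0.04 in the controls, with the same low pair as the mitosis genes but a smaller range. The 79 other mitosis genes tested had the low pair as well, at -0.22 in siRNA replicate 2 and -0.24 in control replicate 1, against 0.08 to 0.13 in the other 4.

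**Figure D2:**
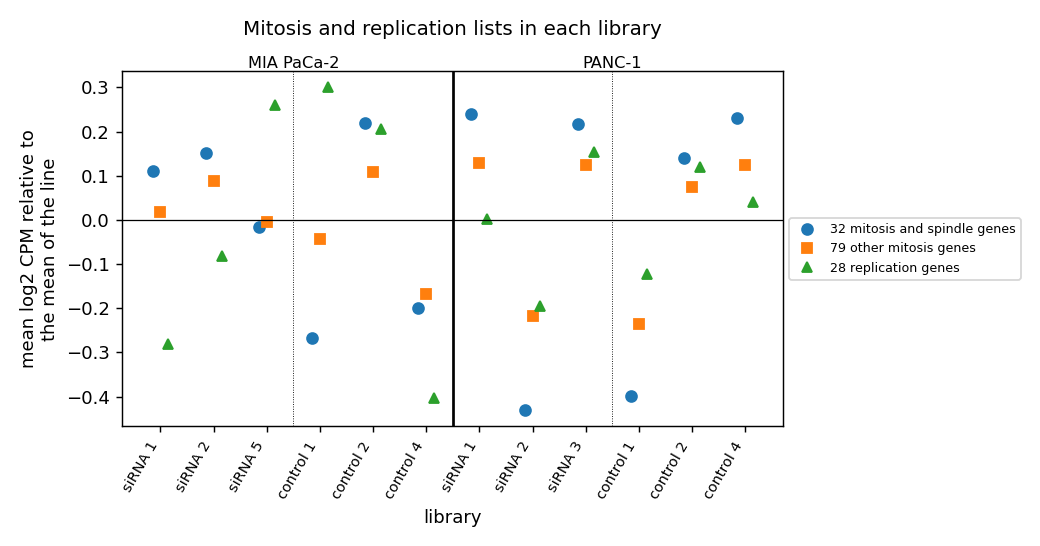
Points give, for each library, the mean over a gene list of log2 CPM relative to the mean of the line (circles, the 32 mitosis and spindle genes; squares, 79 other mitosis genes; triangles, 28 replication genes). In PANC-1 all 3 lists are lowest in siRNA 2 and control 1, while in MIA PaCa-2 the circles and triangles part in control 1 (-0.27 against 0.30). The mean of PANC-1 includes siRNA 3, the library with transcripts particular to MIA PaCa-2.

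Between the highest and the lowest library of a line, the 32 genes differed by a median of 1.76-fold in PANC-1 and 1.63-fold in MIA PaCa-2, against 1.54-fold and 1.51-fold over the 6848 genes at a mean log2 CPM of 5 or more. ASPM had the widest range in PANC-1 (3.57-fold) and the narrowest in MIA PaCa-2 (1.28-fold). Its highest PANC-1 value, 106 CPM, was in siRNA replicate 3, the library with transcripts particular to MIA PaCa-2. That library was the highest of the line for 12 of the 32 genes, against 28.8% of all genes, so the PANC-1 ranges rest on it in part. CDC20 had the widest in MIA PaCa-2, at 2.49-fold. The median coefficient of biological variation, as edgeR names it, was 23.9% for the 32 genes and 19.6% for the same 6848 genes. It was estimated over all 12 libraries, PANC-1 siRNA replicate 3 included, and may hold technical spread.

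The question put to each line was whether these transcripts differ after RBM3 siRNA. In MIA PaCa-2 none of the 32 passed edgeR's quasi-likelihood test with Benjamini-Hochberg adjustment at 0.05, where 0.0112% of all genes tested, 2 genes, did. DESeq2 and limma-voom also called 0 of the 32. An unadjusted edgeR p under 0.05 was found for 1 of them, against 2.94% of all genes. The log2 fold changes lay between -0.09 and 0.35, and 31 of 32 were above 0, with a median of 0.14, against 48.6% of all genes and a median of -0.00. The 32 genes share the rises and falls of the libraries described above, so their signs are not independent. The number above 0 was 21 when control replicate 4 was left out (median 0.07) and 25 when control replicate 1 was (median 0.05). It was 32, with a median of 0.32, when control replicate 2 was left out. The 95% intervals of 31 genes stayed within a log2 value of 1 on either side, and that of BUB1 reached 1.008.

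KIF23, the kinesin MKLP1 of the central spindle, had the smallest p in MIA PaCa-2. With RBM3 siRNA, replicates 1, 2 and 5 held 111, 106 and 86.2 CPM of KIF23, against 80.1, 85.7 and 71.7 CPM in control replicates 1, 2 and 4. Replicate 5 exceeded the highest control by less than 1 CPM, and KIF23 was the only one of the 32 whose siRNA libraries all lay above all controls, against 4.41% of all genes; 0 lay wholly below, against 3.63%. KIF23 had a log2 fold change of 0.35 (SE 0.16), an unadjusted edgeR p of 0.0463 and an adjusted p of 1. A two-sided exact permutation test over the libraries gave 0.1, the smallest value that 3 against 3 can reach.

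**Figure D3:**
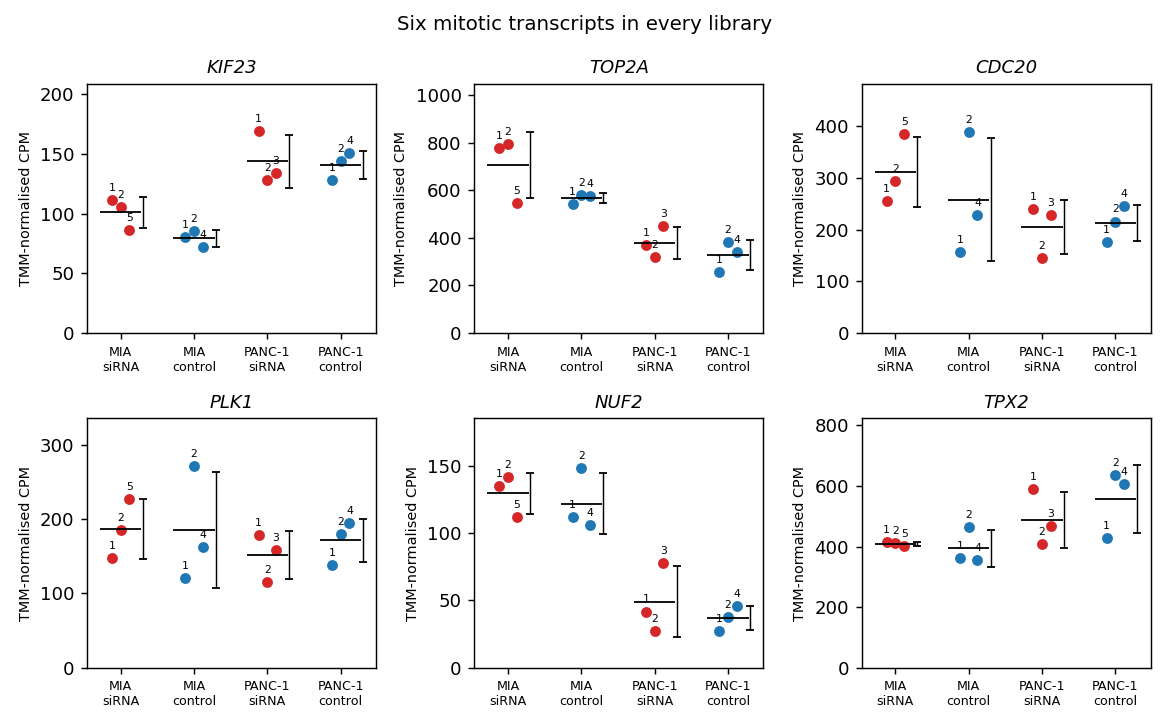
Points are single libraries labelled by replicate number (red, RBM3 siRNA; blue, control siRNA), with the mean as a line and the SD as a bar, in TMM-normalised CPM. KIF23 in MIA PaCa-2 is the only panel and line in which red and blue do not overlap, and PANC-1 siRNA 3 stands apart for NUF2 at 78.1 CPM.

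The entry genes of MIA PaCa-2 were all on the positive side without a call. CDK1 had 135, 131 and 82.3 CPM in siRNA replicates 1, 2 and 5, against 84.6, 104 and 95.9 CPM in the controls, a log2 fold change of 0.29 (SE 0.21). Replicates 1 and 2 were above every control and replicate 5 below every control. CCNA2, CCNB1 and CCNB2 (cyclins A2, B1 and B2) had log2 fold changes of 0.21, 0.21 and 0.09, and the kinases PLK1 and AURKA were at 0.02 and 0.01. PLK1, which acts in centrosome maturation and cytokinesis, ranged from 148 to 227 CPM with RBM3 siRNA and from 121 to 271 CPM with control siRNA.

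Checkpoint and anaphase genes showed the same mixture. BUB1, the checkpoint kinase at kinetochores, was at 246, 243 and 179.5 CPM in siRNA libraries 1, 2 and 5, against 142, 206 and 185 CPM in controls, a log2 fold change of 0.33 (SE 0.31). BUB1B, the BubR1 checkpoint protein, was at 0.04 and TTK at 0.25 on that scale. UBE2C was at 199, 177 and 141 CPM with RBM3 siRNA, against 103, 182 and 154 CPM, a log2 fold change of 0.24 (SE 0.22), and CDC20 was at 0.27. In all 5 genes the groups overlapped.

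At the kinetochore, log2 fold changes in MIA PaCa-2 were 0.26 for CENPF, 0.18 for CENPA (the centromeric histone H3), 0.15 for NDC80, 0.09 for its partner NUF2 and 0.05 for CENPE. The chromosomal passenger complex, which corrects attachments, gave 0.13 for CDCA8 (borealin), 0.12 for AURKB, 0.12 for BIRC5 and -0.09 for its scaffold INCENP, the only negative value of the 32. Of the motors other than KIF23, KIF20A (MKLP2) was at 0.19, KIF2C (the depolymerase MCAK) at 0.09 and KIF11 (Eg5, which separates the poles) at 0.01. None of these passed the test, and SE over all 32 genes was 0.16 to 0.36.

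The spindle microtubule protein NUSAP1 had 215, 222 and 187 CPM in MIA PaCa-2 siRNA replicates 1, 2 and 5, against 149, 214 and 154 CPM in the controls, a log2 fold change of 0.27 (SE 0.21). Control replicate 2 was again level with the siRNA libraries. DLGAP5, ASPM, TPX2, HMMR and PRC1 were between 0.05 and 0.17. TOP2A, the topoisomerase that untangles sister chromatids, was at 779, 794 and 547 CPM, against 543, 580 and 578 CPM, a log2 fold change of 0.32 (SE 0.19), with siRNA replicate 5 among the controls. ANLN was at 0.14 (SE 0.19).

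In PANC-1 the mitosis genes lay on both sides of 0 after RBM3 siRNA. None of the 32 passed edgeR's quasi-likelihood test, where 0% of all genes tested did, and an unadjusted p under 0.05 was found for 0, against 4.12% of all genes. DESeq2 and limma-voom called 0 of the 32 as well. There were 18 of 32 above 0, against 54.8% of all genes, and the median was 0.03, against 0.03 over all genes. With DESeq2 or its size factors 15 were above 0. Single libraries set the sign here. Leaving out control replicate 1 put 5 above 0, siRNA replicate 3 put 8, siRNA replicate 1 put 13, control replicate 2 put 21, and siRNA replicate 2 or control replicate 4 put 26, with medians from -0.14 to 0.18. The siRNA libraries lay wholly above or below the controls for 0 of the 32, against 3.75% of all genes above and 2.77% below. The 95% intervals of 30 genes stayed within a log2 value of 1, and those of NUF2 and ASPM reached 1.10 and 1.079.

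NUF2, a subunit of the NDC80 complex that binds microtubules, had the smallest p in PANC-1. In siRNA replicates 1, 2 and 3 it had 41.8, 27.0 and 78.1 CPM, against 27.6, 37.6 and 45.7 CPM in control replicates 1, 2 and 4, a log2 fold change of 0.41 (SE 0.32). Only siRNA replicate 3 lay above the controls, and this is the library with transcripts particular to MIA PaCa-2, where NUF2 averaged 129 ± 15.5 CPM with RBM3 siRNA (SD, n = 3). Without it the log2 fold change was -0.12. HMMR, a spindle assembly protein also known as RHAMM, was at 104, 55.2 and 124 CPM, against 55.2, 88.0 and 91.7 CPM, a log2 fold change of 0.27 (SE 0.29) that was -0.00 without siRNA replicate 3.

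PANC-1 siRNA replicates 1, 2 and 3 had 370.4, 318 and 452 CPM of TOP2A, against 258, 382 and 339.7 CPM in the controls, with a log2 fold change of 0.22 (SE 0.19), and of 0.06 without siRNA replicate 3. KIF11 was at 159.7, 132 and 167 CPM, against 115, 144 and 151 CPM, at 0.16 (SE 0.18). On the negative side, AURKA was at 188, 103 and 133 CPM, against 118, 191 and 201 CPM, at -0.27 (SE 0.27), and TPX2 was at 588, 409 and 467 CPM, against 429, 634 and 608 CPM, at -0.19 (SE 0.19). Each of these was lowest in control replicate 1 or siRNA replicate 2, and the groups overlapped.

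By role in PANC-1, the entry genes CCNA2, CCNB1, CCNB2 and CDK1 were between -0.06 and 0.14 and the checkpoint genes BUB1, BUB1B and TTK between 0.02 and 0.14. UBE2C was at -0.16, CDC20 at -0.06 and PLK1 at -0.18. Of the kinetochore genes, NDC80 was at 0.21, CENPE at 0.15, CENPF at 0.05 and CENPA at -0.18. AURKB, BIRC5 and CDCA8 were at -0.14, -0.10 and -0.09, with INCENP at 0.03. KIF20A, KIF23 and KIF2C were at 0.13, 0.03 and -0.01. ASPM was at 0.32, DLGAP5 at 0.18, NUSAP1 at 0.07 and PRC1 at -0.14, and ANLN was at 0.02. Many of these values rest on siRNA replicate 3, the library with transcripts particular to MIA PaCa-2. Without it, 10 of the 18 members above 0 came to 0 or below, among them NUF2 and HMMR. The others were KIF20A at -0.24, INCENP at -0.16, CCNA2 at -0.12, DLGAP5 at -0.08, NUSAP1 at -0.08, TTK at -0.04, ASPM at -0.03 and NDC80 at -0.03. AURKB, CCNB2 and KIF2C were then at -0.33, -0.23 and -0.16.

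The responses of the lines were then set against each other, as PANC-1 minus MIA PaCa-2. None of the 32 differences passed edgeR's quasi-likelihood test, where 0% of all genes did, and 0 had an unadjusted p under 0.05, against 2.98%. DESeq2 and limma-voom called 0 of the 32. Above 0 were 8 of 32, against 57.6% of all genes, and the median was -0.19, against 0.06. This median was -0.01 without PANC-1 siRNA replicate 2 and -0.33 without MIA PaCa-2 control replicate 2. Of the 8 differences above 0, 6 fell below 0 without PANC-1 siRNA replicate 3, the library with transcripts particular to MIA PaCa-2. KIF23 had the smallest p, with a difference of -0.32 (SE 0.22), from log2 fold changes of 0.03 in PANC-1 and 0.35 in MIA PaCa-2. UBE2C was at -0.39 (SE 0.31), CDK1 at -0.31 (SE 0.29) and TPX2 at -0.24 (SE 0.26).

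The larger differences in these genes were between the lines. With control siRNA, PANC-1 was higher than MIA PaCa-2 for 3 of the 32 genes and lower for 7 by edgeR's quasi-likelihood test with Benjamini-Hochberg adjustment at 0.05. Of all genes tested, 50.8% were called, 26% higher and 24.8% lower. The median log2 difference was -0.13, and 10 of 32 were above 0, against 50% of all genes. The libraries of the lines did not overlap for 3 genes that were higher and 10 that were lower in PANC-1, against 31.4% and 30.1% of all genes. The count of calls fell to 6 without MIA PaCa-2 control replicate 2.

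The genes called higher in PANC-1 were KIF23, PRC1 and TPX2, but their roles had calls in both directions. Of the 6 spindle microtubule proteins, 2 were called higher (PRC1 and TPX2) and 2 lower (HMMR and DLGAP5), with a median log2 difference of -0.657. Of the 4 kinesin motors, 1 was called higher (KIF23) and 1 lower (KIF20A). KIF23 was at 128, 144 and 151 CPM in PANC-1, against 80.1, 85.7 and 71.7 CPM in MIA PaCa-2, a log2 difference of 0.83 (SE 0.16, edgeR adjusted p 0.00109). PRC1, the microtubule bundler of the midzone, was at 210.0, 273 and 279 CPM, against 141, 205 and 134 CPM, at 0.67 (SE 0.19, edgeR adjusted p 0.0123). For both, every PANC-1 library was above every MIA PaCa-2 library. TPX2 was at 429, 634 and 608 CPM, against 363, 464 and 355 CPM, at 0.50 (SE 0.19, edgeR adjusted p 0.0401). Its groups overlapped, since PANC-1 control replicate 1 was below MIA PaCa-2 control replicate 2, and it no longer passed without MIA PaCa-2 control replicate 1 or 4, MIA PaCa-2 siRNA replicate 2 or PANC-1 control replicate 2 or 4 (edgeR adjusted p 0.0574 to 0.146), with no filter (0.0612) or with the replicate block (0.0853).

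The genes lower in PANC-1 included both microtubule-binding subunits of the NDC80 complex. NUF2 was at 27.6, 37.6 and 45.7 CPM in PANC-1, against 112, 148 and 106 CPM in MIA PaCa-2, a log2 difference of -1.72 (SE 0.33, edgeR adjusted p 0.00104), the largest of the 32. NDC80 was at 31.9, 51.0 and 57.6 CPM, against 88.2, 84.7 and 67.3 CPM, at -0.78 (SE 0.30, edgeR adjusted p 0.0456). The groups did not overlap for either gene, and the call for NUF2 held in all 12 removals, whereas that for NDC80 was lost in 9 (edgeR adjusted p 0.0528 to 0.17). The other kinetochore genes CENPA, CENPE and CENPF had log2 differences of -0.08, -0.02 and 0.38 without a call.

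HMMR was at 55.2, 88.0 and 91.7 CPM in PANC-1 controls, against 169, 192 and 116 CPM in MIA PaCa-2 controls, a log2 difference of -1.02 (SE 0.29, edgeR adjusted p 0.0107). DLGAP5, a kinetochore fibre protein also known as HURP, was at 54.5, 106 and 107 CPM, against 159, 222 and 157 CPM, at -1.01 (SE 0.31, edgeR adjusted p 0.0170). KIF20A was at 54.5, 97.6 and 106 CPM, against 139.7, 259.7 and 148 CPM, at -1.08 (SE 0.36, edgeR adjusted p 0.0243). All 3 were without overlap between the lines, with PANC-1 control replicate 1 the lowest. Without PANC-1 control replicate 1 or without MIA PaCa-2 control replicate 2, DLGAP5 and KIF20A no longer passed (edgeR adjusted p 0.0655 to 0.121). KIF20A shares 68 exon bases with CDC23 on the other strand, and the strand setting of the counting is not given in the sources used here.

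CCNA2 was at 47.3, 75.5 and 79.6 CPM in PANC-1, against 93.0, 156 and 112 CPM in MIA PaCa-2, a log2 difference of -0.83 (SE 0.29, edgeR adjusted p 0.0289). It was not called without MIA PaCa-2 control replicate 2 or 4 or PANC-1 control replicate 1 (edgeR adjusted p 0.0501 to 0.128), and it shares 144 exon bases with EXOSC9 on the other strand. TOP2A was at 258, 382 and 339.7 CPM, against 543, 580 and 578 CPM, at -0.80 (SE 0.19, edgeR adjusted p 0.00459). Both genes were lower in every PANC-1 library. Within the entry group the partners of CDK1 were on the other side from the kinase, which was at 0.50 (SE 0.21, edgeR adjusted p 0.0565), with CCNB1 at -0.32 and CCNB2 at -0.59, none of the 3 passing.

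**Figure D4:**
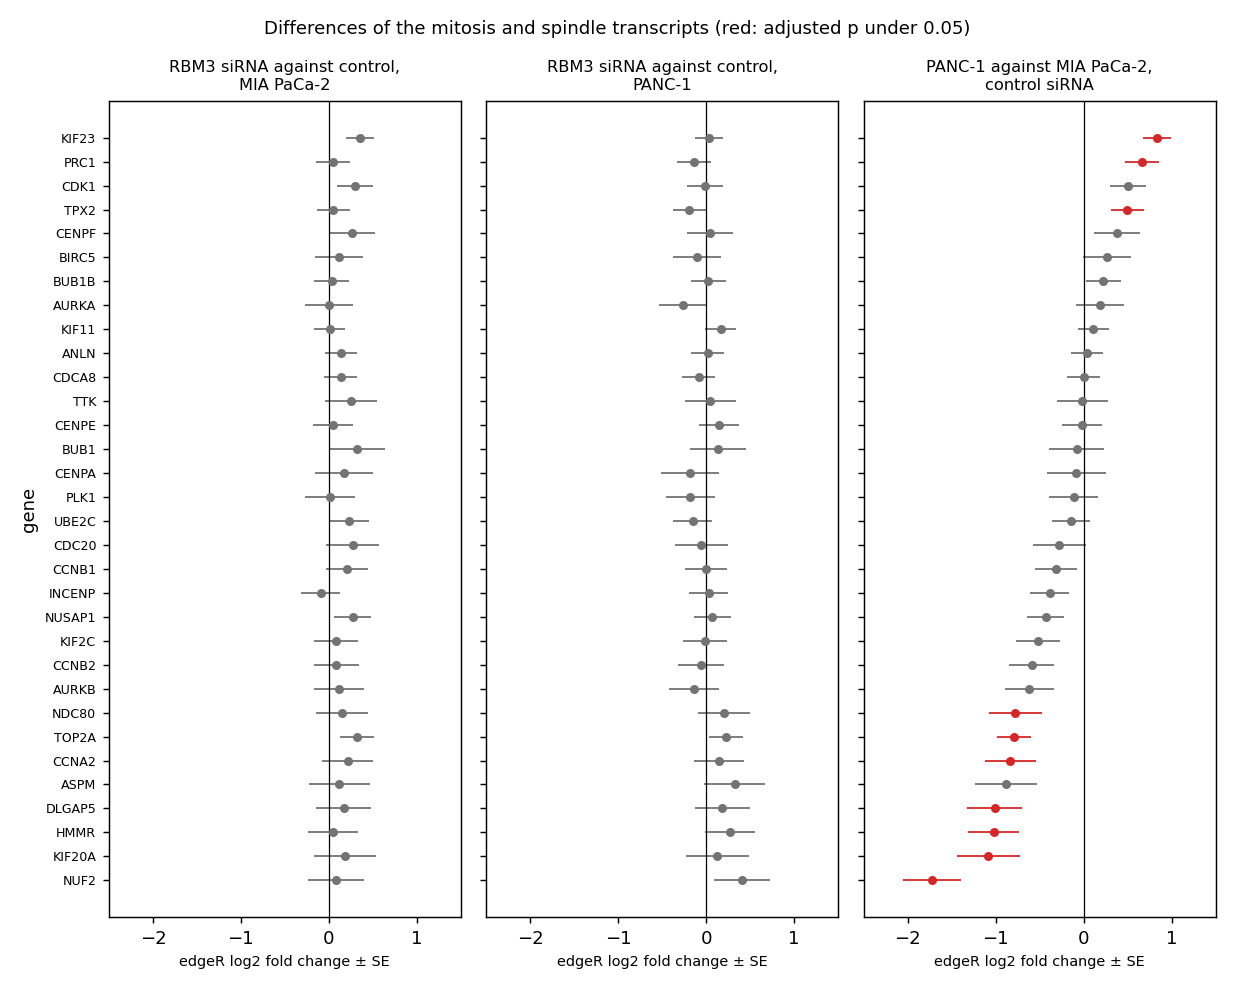
Points are edgeR log2 fold changes with SE as bars for the 32 genes, ordered by the difference between the lines, for the siRNA comparison of each line and for the lines under control siRNA, PANC-1 over MIA PaCa-2 (red, adjusted p under 0.05). The siRNA panels stay between -0.27 and 0.41 with no red point, and the line panel runs from -1.72 for NUF2 to 0.83 for KIF23.

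The comparison of the lines could be made again in the RBM3 siRNA libraries, a contrast added after the data were seen. There 1 gene was higher and 9 were lower in PANC-1, where 43.6% of all genes were called, 24.2% higher and 19.3% lower. Above 0 were 9 of 32, against 49.8%, and without overlap were 2 higher and 14 lower, against 28.5% and 25.9%. Of the 10 genes called with control siRNA, 7 were called in the same direction with RBM3 siRNA (70.0% of each list), against 76.5% of all genes called with control siRNA and 89.3% of all genes called with RBM3 siRNA. The sign was shared for 29 of the 32, against 89.5% of all genes. The 7 were KIF23, NUF2, KIF20A, DLGAP5, HMMR, CCNA2 and TOP2A. KIF23 was at 169, 128 and 134 CPM in PANC-1 siRNA libraries, against 111, 106 and 86.2 CPM in MIA PaCa-2 siRNA libraries, a log2 difference of 0.51 (SE 0.16, edgeR adjusted p 0.0214). Its groups did not overlap, but the call was lost without MIA PaCa-2 siRNA replicate 2 or 5 or PANC-1 siRNA replicate 1 (edgeR adjusted p 0.0503 to 0.098). NUF2 was at 41.8, 27.0 and 78.1 CPM, against 135, 142 and 112 CPM, at -1.40 (SE 0.32, edgeR adjusted p 0.00478), and at -1.92 without PANC-1 siRNA replicate 3. Its call held in all 12 removals.

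TOP2A had 370.4, 318 and 452 CPM in PANC-1 siRNA libraries, against 779, 794 and 547 CPM in MIA PaCa-2 siRNA libraries, at -0.89 (SE 0.19, edgeR adjusted p 0.00335). KIF20A had 101, 47.3 and 133 CPM, against 195, 197 and 230.4 CPM, at -1.14 (SE 0.36, edgeR adjusted p 0.0227). Both were without overlap, and without PANC-1 siRNA replicate 3 they were at -1.046 and -1.496. The call for TOP2A held in all 12 removals, and that for KIF20A was lost without MIA PaCa-2 siRNA replicate 5 or PANC-1 siRNA replicate 1 or 2 (edgeR adjusted p 0.0542 to 0.063). DLGAP5, HMMR and CCNA2 were at -0.999, -0.80 and -0.91, and at -1.25, -1.06 and -1.16 without PANC-1 siRNA replicate 3. Calls were lost in 2 removals of 1 library for DLGAP5, in 4 for CCNA2 and in 7 for HMMR (edgeR adjusted p 0.0505 to 0.128). Added to the calls were NUSAP1 at -0.64, AURKB at -0.87 and CCNB2 at -0.73, each with its call lost in 4 or 5 of the removals, and PRC1 (0.48) and NDC80 (-0.72) did not pass here. Without PANC-1 siRNA replicate 3 all 10 calls held, and NDC80 (-0.95), ASPM (-1.02) and KIF2C (-0.76) passed as well. The count of calls was 6 in a fit of these groups alone and ranged from 3 (without MIA PaCa-2 siRNA replicate 2) to 13 (without PANC-1 siRNA replicate 3); it was 5 and 6 without MIA PaCa-2 siRNA replicates 1 and 5, and 4 without either of PANC-1 siRNA replicates 1 and 2.

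Other genes of division were read from a list of 81, of which 79 were tested. After RBM3 siRNA 51 of 79 were above 0 in MIA PaCa-2 and 44 of 79 in PANC-1, with 0 called by edgeR in either line and 5 and 1 at an unadjusted p under 0.05 (6.33% and 1.27%, against 2.94% and 4.12% of all genes). CIT, the citron kinase of the cleavage furrow, had the smallest p of the list in MIA PaCa-2. It was at 197, 172 and 171 CPM in siRNA libraries, against 95.6, 95.5 and 94.9 CPM in controls, a log2 fold change of 0.92 (SE 0.26, unadjusted edgeR p 0.00393, adjusted p 1), without overlap. In PANC-1 CIT was at 96.3, 59.3 and 124 CPM, against 44.1, 78.4 and 78.8 CPM, at 0.47 (SE 0.26), with overlap, and at 0.19 without siRNA replicate 3. RACGAP1, the partner of KIF23 in the centralspindlin complex, had 78.3, 85.5 and 83.5 CPM in MIA PaCa-2 siRNA libraries, against 98.8, 135 and 104.5 CPM in controls, at -0.45 (SE 0.16, adjusted p 1), and at -0.36 (SE 0.16) in PANC-1. The subunits of centralspindlin thus had fold changes of opposite sign in MIA PaCa-2, neither past the adjusted threshold by edgeR.

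Between the lines with control siRNA, 16 of the 79 were higher and 17 lower in PANC-1, where 26% and 24.8% of all genes were. ZWINT, a kinetochore protein, was higher at 1.398 (SE 0.36), followed by the CDK1-inhibiting kinase PKMYT1 at 1.04, the anaphase-promoting complex subunit CDC26 at 0.92 and the kinase MELK at 0.92. The condensin subunit NCAPD2 was lowest at -1.86 (SE 0.39), with the kinase PBK at -1.37, the phosphatase CDC25C, which activates CDK1, at -1.19 and the Greatwall kinase MASTL at -0.99. Of the 28 replication genes, 3 were higher (CCNE2, GMNN and RRM2, at 2.00, 0.57 and 0.37) and 4 lower (CDT1, POLA1, RFC3 and MCM6, at -1.195, -1.14, -0.995 and -0.77), so that 7 of 28 were called, against 50.8% of all genes.

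Of the 18 regulators of these genes, 17 were tested and none was called after RBM3 siRNA by edgeR. Between the lines with control siRNA 8 of the 17 were called, 4 higher and 4 lower in PANC-1. Of all genes, 50.8% were called, 26% higher and 24.8% lower. The transcriptional activators FOXM1 and MYBL2, which drive G2 and mitotic genes, were lower. FOXM1 was at 95.7, 129 and 135 CPM in PANC-1, against 225, 302 and 209 CPM in MIA PaCa-2, a log2 difference of -1.03 (SE 0.23, edgeR adjusted p 0.00294), and MYBL2 was at -0.64 (SE 0.24, edgeR adjusted p 0.0399). CDKN1A was higher at 4.43 (SE 0.64), from 59.5 to 129 CPM in PANC-1, against 1.24 to 8.14 CPM. Higher too were E2F7 (3.53), E2F1 (1.06) and MDM2 (0.50), and the pocket protein RBL2 was lower (-1.92).

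PRR11, a proline-rich protein linked to the cell cycle that the study singled out on these samples, had 57.9, 54.0 and 43.1 CPM in MIA PaCa-2 siRNA libraries, against 28.5, 26.3 and 27.9 CPM, a log2 fold change of 0.91 (SE 0.21, edgeR adjusted p 0.782). In PANC-1 its log2 fold change was 0.47 (SE 0.21, edgeR adjusted p 1), and 0.32 without siRNA replicate 3. SKA2, a spindle and kinetochore protein encoded beside PRR11, had 87.2, 95.5 and 84.4 CPM with RBM3 siRNA in MIA PaCa-2, against 86.6, 96.4 and 76.2 CPM. In PANC-1 it was at 35.5, 34.1 and 68.7 CPM, against 37.1, 43.0 and 34.4 CPM, so that siRNA replicate 3 stood apart as it did for NUF2. The log2 fold change of SKA2 in PANC-1 was 0.27, and -0.15 without that library.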

How the data were processed

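Gene expression was measured by paired-end RNA sequencing (TruSeq v2 libraries, 75 bp, per the labels' protocols) in 12 libraries of 4 groups. The labels name total and also cytoplasmic RNA, and a pair of media not tied to a line. The authors deposited unnormalised counts of reads for each Ensembl gene, all libraries in 1 table. The submitters' processing notes name STAR, Picard, featureCounts and Subread, with hg19/GRCh37 as build. Annotation release, strand setting and duplicate handling were not given in the sources used here. Counts of duplicates could inflate abundant transcripts, and reads of genes that overlap on opposite strands cannot be told apart.

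The 32 genes were matched by symbol to Ensembl identifiers. These genes and the other lists were chosen with earlier results of these data known. edgeR 4.0.16 in R 4.3.3 tested all 17862 genes left by filterByExpr (minimum count 10), with TMM normalisation, a model of 4 group means over all 12 libraries (8 residual degrees of freedom) and the two-sided quasi-likelihood F-test, with Benjamini-Hochberg adjustment over all genes at 0.05. SE was taken as the size of the log2 fold change over the root of F. CPM per kb used exon lengths of GENCODE v29, which is of another build. For log2 CPM of single libraries a prior count of 2 was added. The limit of a count of 0 is 3 counts and covers counting error only. The tests were checked on simulated counts, drawn for each gene on its own. That check does not cover shifts shared by many genes of a library, or a library that goes against its label. Libraries of a group differed by more than counting noise, so none was counted as a copy.

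Values in every library are given for the 6 members with the smallest p in each siRNA comparison, the 4 with the smallest p in the difference, the called members with the largest differences between the lines (5 in each direction), and any member without overlap between siRNA and control. Of other lists, the 3 genes with the smallest p or up to 4 called genes per direction were eligible. Members named to describe single libraries, and NDC80, HMMR and TOP2A where they fall outside this rule, were chosen after their values were seen. Alternatives were DESeq2 1.42.0, limma-voom (limma 3.58.1), no filter, 1 CPM in 6 libraries, scaling by median-of-ratios factors or by library size alone, the compared groups alone, the replicate number as a block, an adjusted p of 0.1 and removal of each library. The lines under RBM3 siRNA, and DESeq2 and limma-voom without PANC-1 siRNA replicate 3, and the removals for every member, were added after the data were seen. A gene of the regulator list is not reported here.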

Additional observations from a re-analysis of the deposited data

How the results depend on the processing

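In the siRNA comparisons of both lines and in their difference, 0 of the 32 genes were called under every alternative run, removals of 1 library included (0 to 0). Between the lines the count under control siRNA was 6 to 14 over the removals, with 6 without MIA PaCa-2 control replicate 2, and 8 to 14 elsewhere (9 with library size alone, 12 with DESeq2, 11 with limma-voom, 14 at an adjusted p of 0.1). Under RBM3 siRNA it was 3 to 13 over the removals and 6 with only the groups compared, a fit with fewer libraries. The log2 fold change of NUF2 in PANC-1 was -0.12 without siRNA replicate 3, -0.11 by DESeq2 and -0.12 by limma-voom without it, and -0.0454 with the replicate block (0.691 at most, without siRNA replicate 2). That of HMMR was -0.000397 without siRNA replicate 3, -0.0174 by limma-voom without it and -0.0232 with the block, and up to 0.531 without siRNA replicate 2. The cause was not tested. Of all 32 members, removal of 1 library or another alternative turned the sign of 14 in MIA PaCa-2, 25 in PANC-1 and 18 in the difference, and of 10 and 8 between the lines under control and RBM3 siRNA, none of these called. In all, 29 values of named members between the lines no longer passed the threshold under an alternative. The labels do not say whether equal replicate numbers pair the samples, and the main fit did not pair them. Each line shares only 2 numbers between its arms. Deviations of same-numbered libraries from their group means had correlations of 0.01 and -0.05 in MIA PaCa-2 and -0.40 and -0.33 in PANC-1. With means of 3 libraries these values cannot decide on pairing. With the replicate number as a block, 0, 0 and 0 of the 32 genes were called in the siRNA comparisons and their difference, and 8 and 8 between the lines under control and RBM3 siRNA, of which the siRNA comparisons rest on replicates 1 and 2. No alternative scaling moved the median of all genes by over 0.1. With 3 libraries a group, the 95% intervals of the siRNA comparisons reached 0.344 to 0.774 on either side of the log2 fold change, so changes of that size could not be told from the spread between libraries.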
